A study of Mus musculus with 6 samples.

Results

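The killer-cell lectin-like receptor (Klr) genes code for C-type lectin-like receptors on the surface of natural killer (NK) cells and of some T cells. Members were taken as every gene whose symbol starts with Klr followed by a letter from a to k. That gave 26 of the 32285 genes in the files, 11 of them Klra genes (the Ly49 receptors) and 15 others, and all 26 had at least 1 unique molecular identifier (UMI, a tag that marks 1 captured RNA molecule) in the cells kept. The Klra receptors bind MHC class I molecules or relatives of them, and most of them inhibit the cell while a few activate it. Klrd1 (CD94) pairs with Klrc1 (NKG2A, inhibitory) or Klrc2 (NKG2C, activating) to bind the nonclassical MHC molecule Qa-1, Klrk1 (NKG2D) is an activating receptor for ligands of stressed and transformed cells, the Klrb1 genes (NKR-P1) bind Clec2 molecules, Klre1 pairs with Klri1 or Klri2, and Klrg1 binds cadherins. In a C57BL/6 mouse each NK cell carries its own assortment of Ly49 receptors, so that neighbouring cells differ in which of them they express.

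The data came from CD45+ cells enriched with magnetic beads from B16-F10 melanomas, a mouse melanoma line grafted into female C57BL/6 mice that were 6 to 10 weeks old. Both groups received anti–PD-1 antibody (αPD-1), an immune checkpoint blocker, at 150 µg per mouse 3 times a week from day 7 after grafting. The αPD-1 + corin group (3 samples) also received 200 µg per mouse of corin, an inhibitor of the CoREST repressor complex, each day from day 6, and the αPD-1 group (3 samples) received 200 µl of vehicle instead. The study had 10 mice per treatment arm. The labels do not say whether the 3 samples of a group came from separate mice, so p-values measure the spread between these samples, which may be partly technical. No untreated or isotype-control tumors are among these samples.

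The 6 libraries held 52899 barcodes and 52281422 to 84276739 UMIs each, and 28865 cells were kept. Of the barcode sequences, 299 occurred in more than 1 library, 93 of them among the kept cells. NK-like cells numbered 425 (47 to 140 per sample), CD8 T cells 2061 (70 to 873), CD4 T cells 326 (14 to 99) and Foxp3+ T cells 182 (13 to 50). The remaining T cells numbered 1413 (69 to 357), monocytes and macrophages 11338 (1155 to 4746) and dendritic cells 1767 (158 to 561). The remaining T cells had no Cd4, Cd8a, Cd8b1 or Foxp3 UMI, or a Cd8a or Cd8b1 UMI together with a Cd4 or Foxp3 UMI. Clusters with transcripts of 2 lineages, such as T with B cell or macrophage genes, held 2489 cells (113 to 721 per sample). These were left out of the classes above. They held 7272 Klr UMIs, against 6302 in CD8 T cells and 5446 in NK-like cells. The dendritic cells included a cluster of 250 cells with no subtype name, led by C1qa, C1qb, C1qc and Apoe. A cluster of 41 cells led by Apod, Cd209d and Gprc5c was also left without a subtype name. The NK-like cluster was led by Gzma, Ncr1, Car2 and Xcl1. Ncr1 (NKp46), the defining NK receptor, stood at 378 CPM (UMIs of the gene relative to all UMIs of the class, on the usual CPM scale) in NK-like cells and at 1.53 CPM in CD8 T cells. At least 2 T cell receptor or CD3 UMIs were nonetheless present in 20.24% of the NK-like cells. Cd3e stood at 73.2 CPM there against 769 CPM in CD8 T cells.

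All 26 genes lie on mouse chromosome 6, and 24 of them lie in 1 stretch of it in GRCm39. Klrb1a opens that stretch at 128586190 and Klra2 closes it at 131224330, with the Klrb1 genes first, then Klre1, Klrd1, Klrk1, the Klrc genes and the Klri genes, and then the Klra genes. Klrg1 lies apart at 122246981 to 122259914 and Klrg2 at 38595375 to 38614222. Because family members are close copies, the share of 90-base stretches of each gene's transcripts that also occur in another gene was counted, 90 bases being the length of the cDNA read. That share was 22.9% for Klrb1b, 18.67% for Klrc3, 17.97% for Klrc1, 13.99% for Klra8, 12.35% for Klra9, 12.15% for Klra10, 9.89% for Klrb1c and 8.68% for Klrc2, so the counts of these genes are less certain. It was 0 for Klrd1, Klrk1, Klre1, Klrg1, Klra1, Klra2, Klra5, Klra6 and Klra17.

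Among the immune classes, leaving aside the remaining T cells, NK-like cells held the highest level of 21 of the 26 genes. The other 5 members were highest elsewhere. Levels are CPM of all UMIs summed per sample and class, as the mean ± SD of 6 samples. A UMI marks the 5′ end of a molecule, so levels of different genes were set side by side without a length correction. Klrk1 was the most abundant in NK-like cells (682 ± 157.5), followed by Klrb1c (NK1.1, 601.8 ± 85.55), Klrd1 (543.5 ± 99.73), Klrb1b (495.9 ± 93.29) and Klre1 (493.1 ± 76.38). These 5 did not separate from their neighbours in that order beyond the SDs. Among the Klra genes in NK-like cells, Klra8 (Ly49H, an activating receptor, 348.6 ± 125.5), Klra4 (Ly49D, an activating receptor, 336.2 ± 74.22) and Klra7 (Ly49G, an inhibitory receptor, 315.3 ± 87.24) lay within their SDs of each other, and Klra9 (Ly49I, 144 ± 85.26), Klra3 (Ly49C, 88.89 ± 36.1) and Klra1 (Ly49A, 59.66 ± 17.67) were lower. The levels are descriptions, since the classes came from clustering the same cells. The Klr genes were left out of that clustering.

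Several members were at the limit of detection in NK-like cells. Klrg2 had no UMI in the 1038348 UMIs of the class, which allows up to 2.889 CPM when 3 counts are taken as the limit (counting error only). Klra17 had 3 UMIs, Klra10 had 4, Klra2 and Klrb1 had 5 each, Klra5 had 7, Klri1 had 12, Klrc3 had 17, Klra6 had 18 and Klrg1 had 41. Klrb1 and Klra10 stayed below 6 CPM in every class of the map of levels. Klra6 (Ly49F) was higher in the remaining T cells (27.19 ± 11.56 CPM) than in NK-like cells (16.07 ± 9.359 CPM), with overlapping samples.

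**Figure D1:**
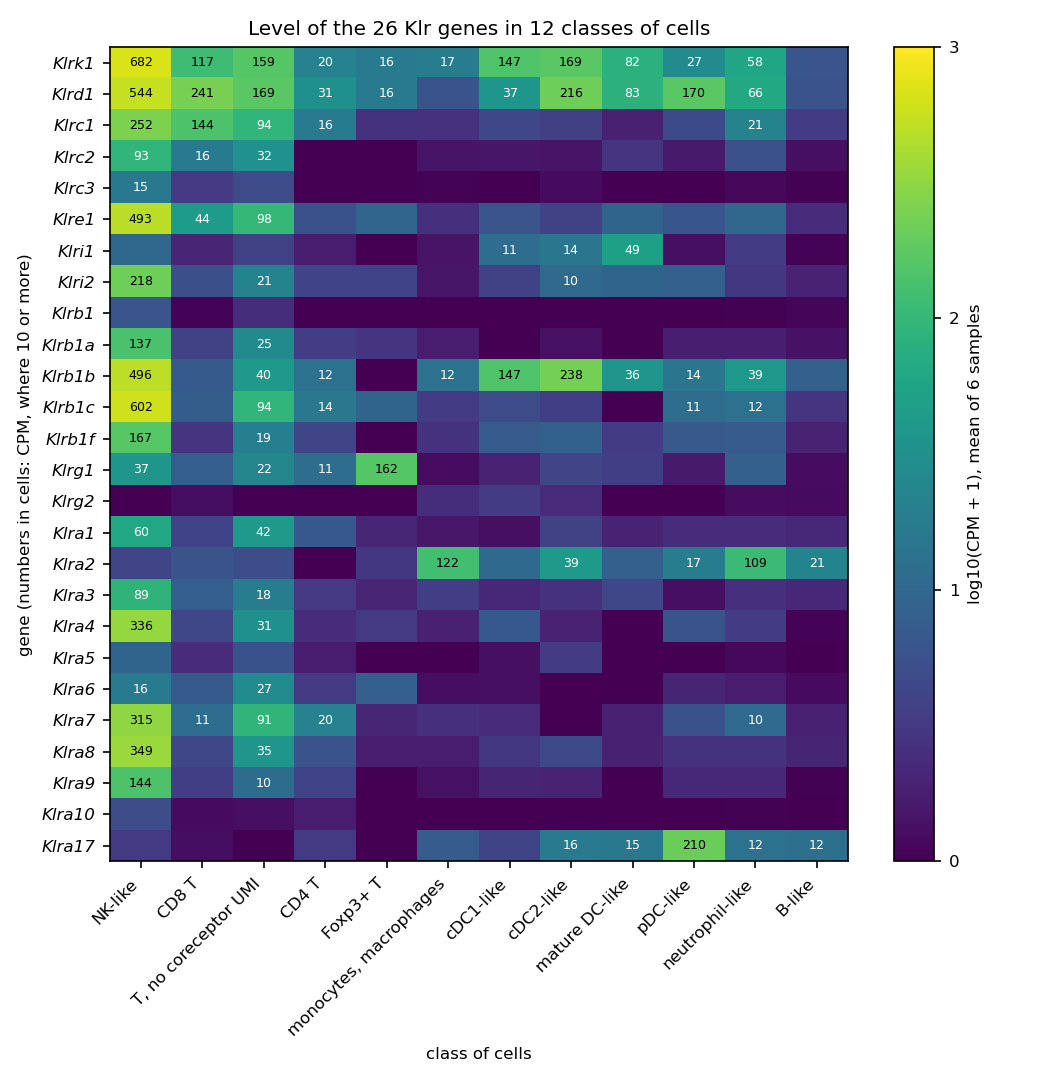
Level of the 26 Klr genes (rows) in 12 classes of cells (columns), as log10(CPM + 1) of the mean of 6 samples in color and as CPM in print where it reached 10. The column named T, no coreceptor UMI holds the remaining T cells. The NK-like column holds most of the high values, while Klrg1 stands out in Foxp3+ T cells (161.5 CPM), Klra17 in pDC-like cells (210.2 CPM) and Klra2 in monocytes and macrophages (122.1 CPM) and neutrophil-like cells (108.7 CPM).

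The members highest outside NK-like cells split the Klra family by cell class. Klra17 was highest in pDC-like (plasmacytoid dendritic) cells, whose defining marker Siglech stood at 1880 CPM, with 186.7, 242.7 and 217.9 CPM in the αPD-1 samples and 202.5, 231.4 and 180.3 CPM in the αPD-1 + corin samples. The next class, cDC2-like cells, averaged 16.23 ± 15.57 CPM and did not overlap with it. Klra2 was highest in monocytes and macrophages at 122.1 ± 43.08 CPM and close behind in neutrophil-like cells at 108.7 ± 41.06 CPM, and the samples of these classes overlapped. The αPD-1 samples had 21, 17 and 20 neutrophil-like cells with 8, 5 and 10 Klra2 UMIs. C1qa, a gene of the monocyte and macrophage list, stood at 420 CPM in neutrophil-like cells and 1690 CPM in monocytes and macrophages. The part of macrophage RNA in the Klra2 level was not tested. Klra2 was at 3.256 ± 5.566 CPM and Klra17 at 2.2 ± 3.409 CPM in NK-like cells. Klri1, which pairs with Klre1, was highest in mature DC-like cells (49.25 ± 28.92 CPM), where 3 of 6 samples had under 15 cells. Klrg2 stayed at or below 2.286 ± 2.682 CPM in every immune class and was at 2.817 ± 1.548 CPM in melanoma-like cells.

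The promoters of these Klra genes were set side by side because Klra4 and Klra8 were high in NK-like cells, Klra17 in pDC-like cells and Klra2 in monocytes and macrophages. Each run is 300 bases, from 250 before the RefSeq start to 50 after it, read 5′ to 3′ on the gene's own strand (minus for all 4) in RefSeq's GRCm38.p6 build, an earlier build than that of the counts. Capitals mark the searched letters described after the next set, and these 4 hold none.
Klra4 (chr6:130067222-130067521): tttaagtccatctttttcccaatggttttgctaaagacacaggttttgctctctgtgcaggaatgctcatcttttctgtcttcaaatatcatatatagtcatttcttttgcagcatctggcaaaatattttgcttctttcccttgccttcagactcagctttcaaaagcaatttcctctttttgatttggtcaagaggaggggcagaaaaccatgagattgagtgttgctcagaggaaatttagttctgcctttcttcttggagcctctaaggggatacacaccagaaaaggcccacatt
Klra8 (chr6:130129849-130130148): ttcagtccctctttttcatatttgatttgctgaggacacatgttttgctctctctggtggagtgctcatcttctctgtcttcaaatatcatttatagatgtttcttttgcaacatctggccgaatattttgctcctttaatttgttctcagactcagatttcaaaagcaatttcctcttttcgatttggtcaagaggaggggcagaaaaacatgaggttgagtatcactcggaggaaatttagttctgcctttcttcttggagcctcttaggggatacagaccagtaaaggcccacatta
Klra17 (chr6:129876623-129876922): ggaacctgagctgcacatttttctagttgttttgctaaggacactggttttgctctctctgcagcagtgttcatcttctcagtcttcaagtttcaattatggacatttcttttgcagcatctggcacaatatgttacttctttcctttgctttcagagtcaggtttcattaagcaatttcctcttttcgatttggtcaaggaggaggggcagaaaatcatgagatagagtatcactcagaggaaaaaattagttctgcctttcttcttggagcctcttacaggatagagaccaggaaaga
Klra2 (chr6:131247313-131247612): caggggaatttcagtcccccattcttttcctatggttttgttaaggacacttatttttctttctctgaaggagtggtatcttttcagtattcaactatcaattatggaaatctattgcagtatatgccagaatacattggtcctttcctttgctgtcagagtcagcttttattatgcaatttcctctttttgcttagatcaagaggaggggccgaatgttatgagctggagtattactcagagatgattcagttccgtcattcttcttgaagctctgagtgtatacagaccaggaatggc

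The runs were aligned end to end in pairs, with gaps allowed, and identity was counted over the 300 bases. Klra4 and Klra8 were identical at 86.3% of these bases, Klra4 and Klra17 at 81.0%, and Klra8 and Klra17 at 81.3%. The values were 76.3% for Klra2 and Klra17 and 74.0% for Klra4 and Klra2. The promoters of genes highest in NK-like cells, in pDC-like cells and in monocytes and macrophages were therefore close relatives in this window. Klra7, which was as abundant in NK-like cells as Klra4, was identical to Klra4 at 39.7% of these bases. That was no higher than for Klra4 and members outside the Klra genes, such as Klrk1 (45.3%) and Klrc2 (49.0%).

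In NK-like cells, none of the 16 members that passed the filter on low counts differed between αPD-1 + corin and αPD-1. Tests were edgeR's quasi-likelihood test on UMIs summed per sample, with Benjamini-Hochberg adjusted p-values over the 2859 genes tested in the class and 0.05 as the threshold. Of all genes tested, 0.21% were called higher and 0.595% lower, and of the 16 members 0 were called. The lowest adjusted p of a member was 0.449, 1 member had an unadjusted p under 0.05 (Klra7), and DESeq2 also called 0 members. The median log2 change was -0.02 over the members and -0.003 over all genes tested. The 16 that passed the filter were the 16 with the most UMIs in the class, and the 10 that did not pass had at most 41 UMIs in the class.

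Klrk1, the NKG2D receptor, stood at 689.1, 836.1 and 821.3 CPM in the αPD-1 samples and at 450.7, 535.6 and 758.9 CPM in the αPD-1 + corin samples, with overlapping ranges. Its log2 change was -0.38 ± 0.19 (SE) with an adjusted p of 0.463. Klrd1 (CD94) stood at 495.7, 545.3 and 369.1 CPM against 633.1, 593.7 and 624 CPM, and here every αPD-1 + corin sample was above every αPD-1 sample. Its log2 change was 0.37 ± 0.19 with an adjusted p of 0.502. Its partner Klrc1 (NKG2A) stood at 356.6, 245.4 and 203 CPM against 118, 316.2 and 273.2 CPM, and its other partner Klrc2 (NKG2C) at 108.8, 77.25 and 110.7 CPM against 75.11, 70.98 and 118.1 CPM. Both pairs of ranges overlapped, with log2 changes of -0.11 ± 0.24 and -0.01 ± 0.32.

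The Klrb1 (NKR-P1) genes gave both directions. Klrb1c (NK1.1) stood at 658.9, 627.1 and 719.8 CPM in the αPD-1 samples and at 482.8, 535.6 and 586.9 CPM in the αPD-1 + corin samples, and Klrb1f, a receptor of a Clec2 ligand, at 193.4, 159 and 230.7 CPM against 150.2, 116.2 and 155.2 CPM. Every αPD-1 + corin sample was below every αPD-1 sample for both, at log2 changes of -0.29 ± 0.18 (adjusted p = 0.576) and -0.40 ± 0.25 (adjusted p = 0.564). Groups that do not overlap were common in this class, since 9.06% of all genes tested separated upward and 7.94% downward, and of the 16 members 1 (Klrd1) separated upward and these 2 downward. Klrb1b (NKR-P1B, inhibitory) stood at 411, 395.3 and 627.5 CPM against 461.4, 496.9 and 583.5 CPM and Klrb1a at 78.58, 145.4 and 175.3 CPM against 107.3, 83.89 and 229.4 CPM, with overlap in both. Their log2 changes were 0.16 ± 0.20 and 0.28 ± 0.31.

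Klre1 and Klri2, which form 1 receptor, also overlapped between groups. Klre1 stood at 423.1, 604.3 and 516.8 CPM against 461.4, 406.5 and 546.4 CPM (log2 change -0.11 ± 0.20). Klri2 stood at 205.5, 259 and 286.1 CPM against 225.3, 135.5 and 199 CPM (log2 change -0.42 ± 0.23, adjusted p = 0.515).

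The 6 Klra genes tested in NK-like cells all overlapped between groups. Klra7 (Ly49G) stood at 211.6, 290.8 and 286.1 CPM in the αPD-1 samples and at 472.1, 290.4 and 340.7 CPM in the αPD-1 + corin samples, and 2 of the 3 αPD-1 + corin samples exceeded every αPD-1 sample (log2 change 0.44 ± 0.21, adjusted p = 0.449). Klra4 (Ly49D) stood at 332.5, 309 and 332.2 CPM against 236.1, 342 and 465.5 CPM (log2 change 0.19 ± 0.21). Klra8 (Ly49H) stood at 308.3, 558.9 and 286.1 CPM against 257.5, 238.8 and 441.8 CPM (log2 change -0.27 ± 0.24). For both activating receptors, αPD-1 + corin replicate 3 was the highest of its group. Klra3 (Ly49C) stood at 54.4, 136.3 and 46.14 CPM against 75.11, 103.3 and 118.1 CPM (log2 change 0.26 ± 0.34), and Klra1 (Ly49A) at 60.45, 40.89 and 64.59 CPM against 85.84, 38.72 and 67.46 CPM (log2 change 0.23 ± 0.42).

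Klra9 (Ly49I) was the member that 1 library decided. It stood at 187.4, 145.4 and 156.9 CPM in the αPD-1 samples and at 42.92, 58.08 and 273.2 CPM in the αPD-1 + corin samples (log2 change -0.03 ± 0.34, adjusted p = 0.988). αPD-1 + corin replicate 3, which held 136 of the 413 NK-like cells with 1000 or more UMIs, was above every αPD-1 sample, and the other 2 were below them. Without that replicate the log2 change was -1.62 with an adjusted p of 0.0154. The counts behind these values were small, with 4 and 9 Klra9 UMIs in αPD-1 + corin replicates 1 and 2. Markers of other cells moved in this class too, with the T list (12 of 12 genes detected) at 999.7 to 1338 CPM in αPD-1 and 654.5 to 922.8 CPM in αPD-1 + corin and the B cell list (10 of 10) at 27.68 to 266 and 0 to 19.36 CPM, and their part in the NK-like values was not tested.

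**Figure D2:**
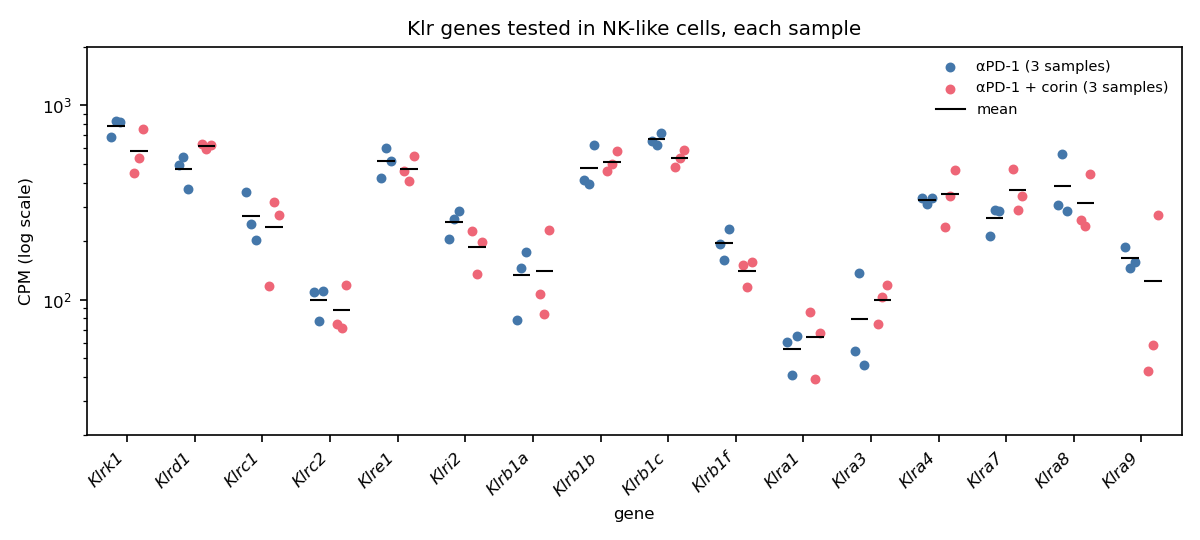
CPM (log axis) of the 16 Klr genes tested in NK-like cells, 1 point per sample, αPD-1 in blue and αPD-1 + corin in red, with group means as bars. Most genes overlap between groups, Klrd1 separates upward and Klrb1c and Klrb1f downward without passing the test, and the 3 αPD-1 + corin points of Klra9 spread from 42.92 to 273.2 CPM.

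Among the pathway lists in NK-like cells, the adaptors and signalling genes of these receptors (Tyrobp, Hcst, Fcer1g, Syk, Ptpn6 and others) had 0 of 14 tested genes called, the ligands (Raet1, Ulbp1 and H60 genes, MHC class I, Clec2 genes, cadherins) 0 of 5, the transcription factors of NK cells 0 of 15, and other NK receptors 0 of 13. Of 13 effector genes 1 was called. Gzmc (granzyme C) rose from 324.6 ± 79.31 to 1027 ± 797.7 CPM, a log2 change of 1.60 ± 0.34 with an adjusted p of 0.0115. The medians of the 4 lists with no call lay between -0.36 and 0.06 (log2).

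CD8 T cells, taken as T cells with a Cd8a or Cd8b1 UMI and none of Cd4 or Foxp3, held more Klr RNA in αPD-1 + corin. The sum of all 26 genes was 749 ± 137.1 CPM in αPD-1 + corin and 526 ± 54.47 CPM in αPD-1 (n = 3 each), against 4937 ± 871.6 and 5219 ± 315.4 CPM in NK-like cells. Of the 6 members tested, 3 were called higher (Klre1, Klrd1 and Klrk1) and 0 lower, where 1.65% of the 8360 genes tested were called higher and 4.52% lower. The median log2 change was 0.61 over the 6 members and 0.02 over all genes tested.

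Klre1 stood at 25.92, 33.34 and 16.89 CPM in the αPD-1 samples and at 79.11, 63.21 and 47.84 CPM in the αPD-1 + corin samples, and the groups did not overlap (log2 change 1.08 ± 0.25, adjusted p = 0.021). Klrd1 stood at 209.2, 203.8 and 177.3 CPM against 247.9, 311.2 and 294.8 CPM, also without overlap (log2 change 0.56 ± 0.14, adjusted p = 0.0269). Klrk1, a costimulatory receptor on CD8 T cells, stood at 93.49, 108.5 and 86.55 CPM against 89.66, 142.2 and 181.6 CPM, where αPD-1 + corin replicate 1 lay within the αPD-1 range (log2 change 0.66 ± 0.18, adjusted p = 0.0488). The other 3 tested members did not pass. Klrc1 stood at 136.1, 146.6 and 85.49 CPM against 131.9, 171.4 and 195 CPM (adjusted p = 0.141), Klrc2 at 9.256, 12.17 and 15.83 CPM against 10.55, 29.18 and 18.7 CPM (adjusted p = 0.187), and Klra7 at 12.03, 11.11 and 10.55 CPM against 5.274, 12.16 and 13.84 CPM (adjusted p = 0.811).

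Of the 6 members tested 2 (Klre1 and Klrd1) separated upward without overlap, where 12.6% of all genes tested did. The calls were not kept throughout. DESeq2 called 0 of the 3, at log2 changes of 1.18 for Klre1, 0.54 for Klrd1 and 0.59 for Klrk1. Leaving out αPD-1 replicate 1, αPD-1 replicate 3 or αPD-1 + corin replicate 2 left 0 called, and leaving out αPD-1 replicate 2 or αPD-1 + corin replicate 3 left 1 (Klre1). Over the 6 samples left out in turn, the log2 change ranged from 0.89 to 1.39 for Klre1, from 0.47 to 0.61 for Klrd1 and from 0.37 to 0.76 for Klrk1, which was lowest without αPD-1 + corin replicate 3.

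The CD8 T cells of the groups also differed in state. Cells with an Mki67 or Top2a UMI, genes of dividing cells, made up 29.1% of CD8 T cells in αPD-1 and 43.98% in αPD-1 + corin. Among the cells with neither UMI, a comparison added after the data were seen, 4 members were called higher, Klrc1 (log2 change 1.30), Klrk1 (1.10), Klre1 (0.96) and Klrd1 (0.89). A cluster led by Dapl1, Igfbp4 and Lef1 held 34.08% of the αPD-1 and 1.107% of the αPD-1 + corin CD8 T cells, and a cluster led by Prss2, Ccl5 and Gzmk held 16.89% and 39.76%. Among genes of naive T cells, Igfbp4 (log2 change -2.88), Lef1 (-2.70) and Tcf7 (-2.24) fell. The NK marker list (15 of 15 genes detected) summed to 2740 to 3304 CPM in the αPD-1 and 3054 to 4408 CPM in the αPD-1 + corin CD8 T cells. The monocyte and macrophage list (15 of 15) was higher in αPD-1 + corin without overlap (1081 to 1160 against 1521 to 1909 CPM), as were the neutrophil list (10 of 10, 43.5 to 48.69 against 118.5 to 336.7 CPM) and the T list (12 of 12, 4311 to 4548 against 4666 to 5058 CPM), while the B cell list (10 of 10) was lower (144.5 to 250.1 against 8.014 to 131.9 CPM). The part of these lists in the Klr change was not tested.

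Of the other lists in CD8 T cells, the transcription factors of NK cells gave 2 rises (Zeb2, log2 change 0.85, and Id2, 0.58) and 3 falls (Tcf7, Bach2, -2.06, and Klf2, -1.78) among 16 tested. Other NK receptors gave 2 rises among 15, Il12rb2 (a subunit of the interleukin-12 receptor, 0.99) and Il18rap (a subunit of the interleukin-18 receptor, 0.81). The effectors gave 1 rise among 15 (Gzmb, 0.79), the cycling genes 1 among 8 (Cdk1, 0.69), and the effector Treg list 1 fall among 12 (Itgae, the integrin αE chain, -3.09). The adaptors (0 of 14), the ligands (0 of 8) and the list of regulatory and memory CD8 genes (0 of 13) gave no call.

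Whether the treatment difference was itself different between NK-like and CD8 T cells was tested within samples by the interaction of class and treatment. Of 17 members tested, 2 were called, where 0.675% of the 5038 genes tested were called in either direction. For Klre1 the difference in NK-like cells minus that in CD8 T cells was -1.14 ± 0.28 (log2, adjusted p = 0.0396), and for Klrk1 it was -0.93 ± 0.22 (adjusted p = 0.0311). Both genes were higher with corin in CD8 T cells and were not called in NK-like cells. Leaving out αPD-1 replicate 1, 2 or 3 or αPD-1 + corin replicate 2 left 0 members called, and leaving out αPD-1 + corin replicate 3 left 1. For Klrd1, called in CD8 T cells, the interaction was -0.15 ± 0.22 (adjusted p = 0.917).

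The remaining T cells held the most Klr RNA of the T cell classes. They had no Cd4, Cd8a, Cd8b1 or Foxp3 UMI, or a Cd8a or Cd8b1 UMI together with a Cd4 or Foxp3 UMI. Over the class Cd8a stood at 84.8 CPM, Cd4 at 39.7 CPM and Foxp3 at 18.9 CPM. The comparison of this class between groups was added after the data were seen. A cell can lack coreceptor UMIs because it lacks the coreceptor or because few of its RNA molecules were captured, and these cannot be told apart here. The sum of all members was 681.3 ± 192.3 CPM in αPD-1 and 1407 ± 139.2 CPM in αPD-1 + corin. Of the 16 members tested, 9 were called higher and 0 lower, where 7.2% of the 7321 genes tested were called higher and 8.85% lower. The median log2 change was 0.95 over the members and 0.02 over all genes tested. The scaling between samples (TMM) shifted the log2 changes of this class by 0.13 relative to raw CPM, and those of monocytes and macrophages by 0.15.

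The Klrb1 genes led these changes. Klrb1c (NK1.1) stood at 28.72, 70.52 and 36.56 CPM in the αPD-1 samples and at 153.6, 123.1 and 150.2 CPM in the αPD-1 + corin samples (log2 change 1.62 ± 0.26, adjusted p = 0.000159), and Klrb1a at 6.893, 12.93 and 12.19 CPM against 65.85, 19.24 and 34.27 CPM (1.73 ± 0.42, adjusted p = 0.00667). Klrb1f stood at 5.744, 11.75 and 12.19 CPM against 36.58, 19.24 and 27.68 CPM (1.47 ± 0.44, adjusted p = 0.0228), and Klrb1b at 12.64, 31.73 and 12.19 CPM against 109.7, 26.94 and 48.77 CPM (1.41 ± 0.40, adjusted p = 0.0167). The first 3 did not overlap between groups, while Klrb1b did. Klre1 stood at 43.65, 66.99 and 42.66 CPM against 204.9, 130.8 and 96.21 CPM (1.28 ± 0.26, adjusted p = 0.00169) without overlap.

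The NKG2 receptors and Klra7 rose as well. Klrd1 stood at 91.9, 150.4 and 91.41 CPM against 175.6, 246.3 and 259.6 CPM (1.07 ± 0.22, adjusted p = 0.00169), Klrc1 at 62.03, 91.67 and 34.53 CPM against 102.4, 127 and 147.6 CPM (1.02 ± 0.25, adjusted p = 0.00665), and Klrk1 at 65.48, 159.8 and 111.7 CPM against 161, 184.7 and 270.2 CPM (0.96 ± 0.25, adjusted p = 0.00999). None of these 3 overlapped between groups. Klra7 stood at 60.89, 75.22 and 58.91 CPM against 73.17, 138.5 and 137.1 CPM, with αPD-1 + corin replicate 1 within the αPD-1 range (0.94 ± 0.22, adjusted p = 0.00523). In all, 8 of the 16 separated upward without overlap, where 16.9% of all genes tested did. DESeq2 called 5 of the members, and without αPD-1 + corin replicate 3 Klrb1c, Klrd1 and Klre1 (3 members) were called.

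The 7 members tested and not called in these cells were Klrg1, Klrc2, Klri2, Klra6, Klra4, Klra8 and Klra1. Klri2 was the eighth to separate without overlap, at 10.34, 22.33 and 12.19 CPM against 36.58, 23.09 and 22.41 CPM (0.67 ± 0.42, adjusted p = 0.284). Klra8 stood at 17.23, 25.86 and 12.19 CPM against 124.4, 11.55 and 21.09 CPM, so that 1 αPD-1 + corin sample set its mean (0.81 ± 0.51, adjusted p = 0.299). Klra4 stood at 32.17, 12.93 and 46.72 CPM against 58.53, 0 and 34.27 CPM (0.02 ± 0.48, adjusted p = 0.99), and its difference was -0.002 with DESeq2's size factors (RLE) in place of TMM.

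The makeup of this class also differed between groups. A cluster of 485 cells led by Cd7, Ly6c2, Id3, Il7r and Cd160 held 13.34% of the class in αPD-1 and 45.21% in αPD-1 + corin, the cluster led by Dapl1 and Igfbp4 29.28% and 5.295%, and a cluster led by Rapgef4, Auts2 and St8sia1 27.11% and 1.426%. The last of these held at least 2 T cell receptor or CD3 UMIs in 24.78% of its cells, against 85.36% in the first. Among cells with at least 2 T cell receptor or CD3 UMIs 4 members were called, and with UMI gates in place of clusters 0. The NK marker list (15 of 15 genes detected) summed to 1542 to 2227 CPM in αPD-1 and to 3274 to 3636 CPM in αPD-1 + corin, without overlap, and Ncr1 stood at 25.9 CPM over the class against 378 CPM in NK-like cells. The monocyte and macrophage list (15 of 15) summed to 564.7 to 773.3 and 1039 to 1470 CPM, the neutrophil list (8 of 10) to 35.61 to 71.69 and 73.17 to 331 CPM, and the B cell list (10 of 10) to 70.52 to 288.3 and 0 to 30.31 CPM, each without overlap. The part of these cells in the change was not tested.

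The cluster led by Cd7 and Ly6c2 carried the most Klr RNA of the T cell clusters, at 1659 ± 209.9 CPM over all members and 530 ± 111.2 CPM over the Klra genes (n = 6), against 5083 ± 645.3 and 1326 ± 250.2 CPM in the NK-like cluster. Klra7 led its Klra genes, followed by Klra1 and Klra6, which were minor members in NK-like cells. Klra7 stood at 214.8 ± 84.1 CPM, Klra1 at 93.91 ± 39.72 CPM and Klra6 at 90.47 ± 30.1 CPM, while NK-like cells held 313.8 ± 79.58, 59.57 ± 17.03 and 15.99 ± 9.169 CPM of these genes in the same count. The levels are descriptions of clusters.

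Adaptor genes of these receptors moved in this class of T cells. Of 15 tested, 3 rose, Hcst (DAP10, the partner of NKG2D, log2 change 1.23), Tyrobp (DAP12, the partner of activating Ly49 receptors, 1.09) and Fcer1g (an adaptor of NKR-P1C, 1.08), and 1 fell, Cd247 (the ζ chain of the T cell receptor, -1.11). Other lists gave 8 rises and 0 falls of 14 effectors, 5 rises and 1 fall of 16 other NK receptors, 5 rises and 0 falls of 8 cycling genes, 7 rises and 1 fall of 15 effector Treg genes, 6 rises and 1 fall of 13 regulatory and memory CD8 genes, 1 rise and 3 falls of 17 NK transcription factors, and 0 of either among 8 ligands. Over all genes tested in the class these shares were 7.2% and 8.85%.

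**Figure D3:**
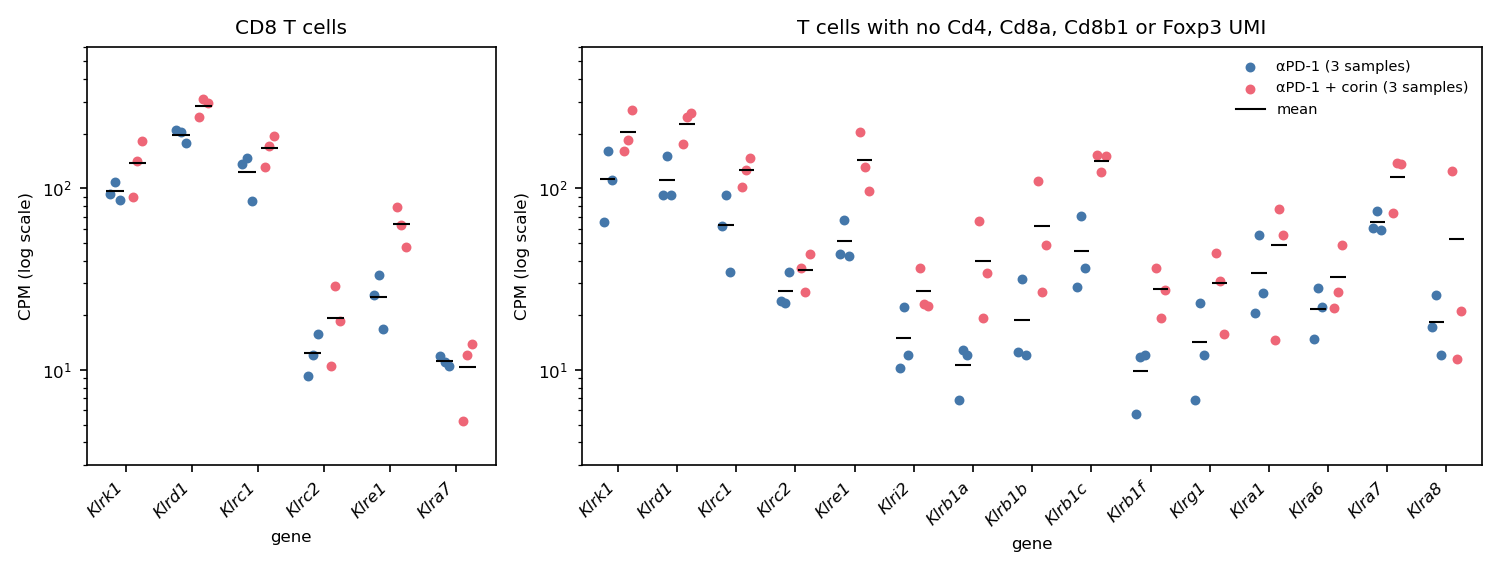
CPM (log axis) of the Klr genes tested in CD8 T cells (left) and in the remaining T cells (right). The right panel is titled T cells with no Cd4, Cd8a, Cd8b1 or Foxp3 UMI, but the class also holds cells with Cd8a or Cd8b1 together with Cd4 or Foxp3 UMIs. Each sample is 1 point, αPD-1 in blue and αPD-1 + corin in red, with group means as bars. Klra4 was tested in the right panel and is left out because 1 sample was at 0, which a log axis cannot show. Klre1 and Klrd1 separate in both panels, and Klrb1c separates on the right from 28.72 to 70.52 CPM in αPD-1 to 123.1 to 153.6 CPM in αPD-1 + corin.

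Promoters of the members that led the T cell results are shown in the same way, Klra7 and Klra1 as the leading Klra genes of the Cd7 cluster and Klre1 and Klrk1 as members called in both T cell classes. Klre1 is on the plus strand and the other 3 on the minus strand (RefSeq, GRCm38.p6). Capitals mark TGTGGT, a RUNX factor motif, and CTTTGA, a TCF/LEF motif, on either strand (TCAAAG on the other strand).
Klra7 (chr6:130231638-130231937): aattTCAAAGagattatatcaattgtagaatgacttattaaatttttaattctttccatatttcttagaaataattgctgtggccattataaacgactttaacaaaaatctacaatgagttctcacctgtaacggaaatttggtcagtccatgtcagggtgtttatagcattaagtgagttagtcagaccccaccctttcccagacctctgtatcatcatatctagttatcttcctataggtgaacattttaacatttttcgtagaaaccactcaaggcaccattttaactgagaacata
Klra1 (chr6:130386825-130387124): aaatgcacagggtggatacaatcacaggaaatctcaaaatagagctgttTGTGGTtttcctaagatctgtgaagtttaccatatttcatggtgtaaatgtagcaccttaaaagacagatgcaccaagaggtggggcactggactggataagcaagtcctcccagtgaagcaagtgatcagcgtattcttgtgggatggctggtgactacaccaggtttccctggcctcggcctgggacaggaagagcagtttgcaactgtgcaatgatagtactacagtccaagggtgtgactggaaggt
Klre1 (chr6:129577963-129578262): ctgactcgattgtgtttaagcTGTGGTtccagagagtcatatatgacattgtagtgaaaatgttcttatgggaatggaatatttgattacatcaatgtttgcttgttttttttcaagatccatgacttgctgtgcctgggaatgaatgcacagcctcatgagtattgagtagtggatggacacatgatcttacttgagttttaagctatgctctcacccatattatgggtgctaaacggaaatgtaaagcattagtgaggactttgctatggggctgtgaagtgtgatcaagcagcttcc
Klrk1 (chr6:129623815-129624114): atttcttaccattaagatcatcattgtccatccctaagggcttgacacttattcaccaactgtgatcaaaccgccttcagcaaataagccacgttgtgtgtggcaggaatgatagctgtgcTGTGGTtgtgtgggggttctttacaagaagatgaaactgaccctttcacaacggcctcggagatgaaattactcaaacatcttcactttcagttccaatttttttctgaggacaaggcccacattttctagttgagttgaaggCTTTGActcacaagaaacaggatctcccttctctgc

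Of the 26 members 23 had a promoter in the RefSeq table. The RUNX letters TGTGGT occurred on either strand in 8 of the 23 and in 16.9% of all 27025 promoters, and the TCF/LEF letters CTTTGA in 6 of the 23 and in 16.2% of all. The T-box letters AGGTGT occurred in 1 of the 23 (13.9% of all) and the ETS letters AGGAAGT in 3 of the 23 (9.6% of all). The members with the RUNX letters were Klrc1, Klrc2, Klrc3, Klrb1a, Klrb1c, Klra1, Klre1 and Klrk1. A match describes these letters in this window and is not a binding site.

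The share of cells with a Klr UMI was compared after every cell was thinned to 1000 UMIs, since depth per cell differed between samples. A UMI of any member was found in 98.05% ± 2.169 of NK-like cells in αPD-1 and in 98.42% ± 2.129 in αPD-1 + corin. In CD8 T cells the shares were 26.71% ± 1.907 and 47.68% ± 5.583 (48.81% and 74.06% with all UMIs). In the remaining T cells they were 25.14% ± 1.933 and 46.44% ± 9.947 (32.12% and 56.81% with all UMIs). Groups did not overlap in either T cell class. In B-like cells, which gave the background of free RNA, the shares were 3.776% ± 0.6014 and 3.09% ± 3.667, and in melanoma-like cells 1.186% ± 0.5346 and 0.8356% ± 0.3085. The αPD-1 + corin B-like samples held only 51, 47 and 14 thinned cells, so the background of that group was poorly measured. Median UMIs per cell before thinning ranged over samples from 1995 to 5465 in CD8 T cells and from 1257 to 1988 in B-like cells.

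Klra genes other than Klra2 and Klra17 were found in overlapping shares of NK-like cells, and in a higher share of the remaining T cells in αPD-1 + corin. Shares in NK-like cells were 53.08% ± 8.944 in αPD-1 and 58.12% ± 11.01 in αPD-1 + corin (68.42% and 70.07% with all UMIs), and 26.7% ± 2.863 and 24.53% ± 9.988 of cells had UMIs of 2 or more Klra genes. In the remaining T cells the shares were 9.073% ± 1.765 (8.036% to 11.11%) and 14.68% ± 2.329 (12.9% to 17.32%), without overlap. In CD8 T cells they were 2.501% ± 0.5027 (1.948% to 2.93%) and 4.202% ± 1.9 (2.899% to 6.383%), with overlap. Monocytes and macrophages, where these genes should be absent, gave 0.3121% ± 0.2114 and 0.5323% ± 0.1028, and B-like cells 0.403% and 0%. The 0% rests on 51, 47 and 14 B-like cells of the αPD-1 + corin samples. The differences in share were not tested.

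**Figure D4:**
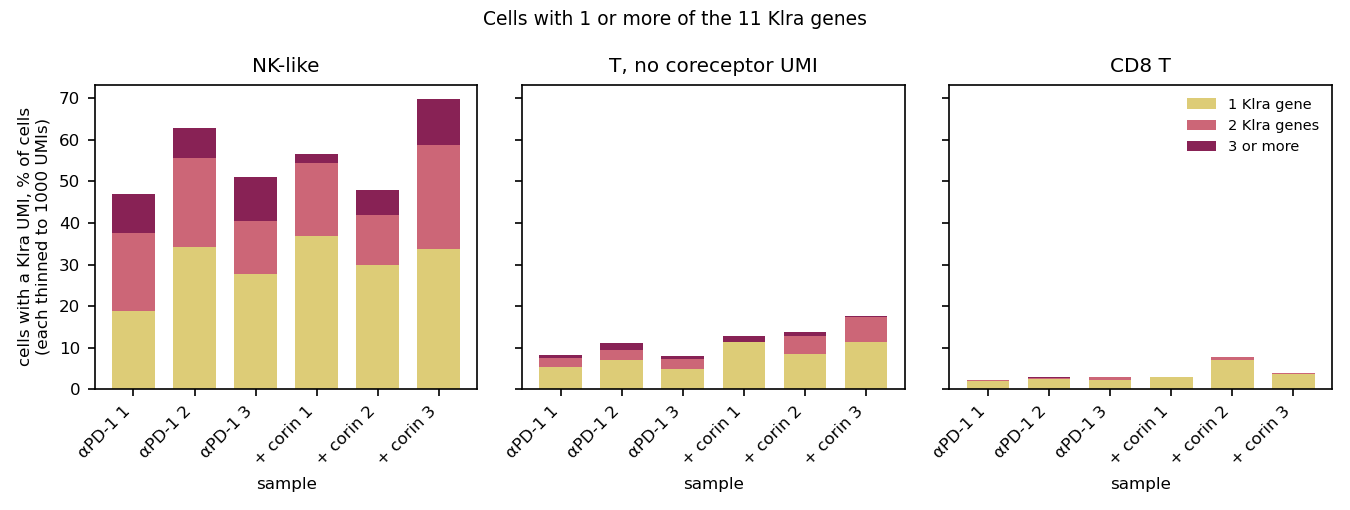
Share of cells (percent, each cell thinned to 1000 UMIs) with UMIs of 1, 2 or 3 or more of the 11 Klra genes, 1 stacked bar per sample. The panels show NK-like cells, the remaining T cells (titled T, no coreceptor UMI) and CD8 T cells. The whole bars reach 46.88% to 69.85% in NK-like cells, 8.072% to 17.65% in the remaining T cells and 2.273% to 7.801% in CD8 T cells.

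Within NK-like cells, Klra genes were found together to varying degrees. Among the 413 cells thinned to 1000 UMIs, Klra4 (Ly49D) was found in 33.33% of cells with a Klra8 (Ly49H) UMI and in 18.01% of cells without one, and Klra7 in 34.31% and 18.97%. Klrd1 was found in 33.33% of the cells with a Klrc1 UMI and in 42.86% of the others. These are shares of cells pooled over 6 samples and are descriptions.

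Among all T cells, those with a Klra UMI other than of Klra2 and Klra17 numbered 222 after thinning (10 to 83 per sample). This comparison too was added after the data were seen. Klra7 was found in 99 of them, Klra1 in 53, Klra6 in 48, Klra3 in 30, Klra4 in 23, Klra8 in 20 and Klra9 in 19. Against the T cells with none in the same samples, 2.85% of the 2069 genes tested were called higher and 2.32% lower (59 and 48 genes). The largest rises were Tyrobp (log2 change 2.74 ± 0.26, adjusted p = 4.32e-14), Klre1 (2.71 ± 0.39), Fcer1g (2.60 ± 0.22), Cd7 (2.17 ± 0.22), 1700025G04Rik (2.14 ± 0.31), Il12rb2 (1.99 ± 0.39), Klrk1 (1.84 ± 0.25) and Pde2a (1.81 ± 0.34), each higher in 6 of 6 samples. Klrd1 rose by 1.08 ± 0.24 (adjusted p = 0.00118), and Klrc1 did not pass (0.60 ± 0.33, adjusted p = 0.439).

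The largest falls in T cells with a Klra UMI were Ctla4 (log2 change -2.41 ± 0.36), Ly6a (Sca-1, -2.16 ± 0.26), Cd8b1 (-1.94 ± 0.29) and Gm8369 (-1.87 ± 0.40), each lower in 6 of 6 samples. Among the lists, effectors gave 3 rises and 3 falls of 11, other NK receptors 3 and 1 of 10, and effector Treg genes 0 and 4 of 5. Adaptors gave 2 and 1 of 12, NK transcription factors 1 and 0 of 12, and cycling genes 0 and 2 of 3. Of 10 tested genes of the regulatory and memory CD8 list, 5 rose and 2 fell. Beside Tyrobp and Fcer1g, the rises were Xcl1 (a chemokine for cDC1 cells, 1.48 ± 0.23), Ikzf2 (Helios, a transcription factor of regulatory T cells, 1.15 ± 0.19) and Il2rb (CD122, 0.70 ± 0.18), and the falls were Cd8b1 and Icos (-1.32 ± 0.42, adjusted p = 0.0476). All of these rises but Ikzf2 are also genes of the NK marker list. Cd3e fell by 0.71 ± 0.20 on the log2 scale (adjusted p = 0.0144) and Cd8a by 1.30 ± 0.28 (adjusted p = 0.00102). Cd3e was at 364.4 CPM in the cells with a Klra UMI, 605.8 CPM in those with none and 73.2 CPM in NK-like cells, and the part of NK cells in these differences was not tested.

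Within CD8 T cells a similar comparison, which also counted Klra2 (found in 9 of the 73 positive cells) and Klra17 (in 0), had 3 samples with at least 10 Klra-positive cells, and 0% of the 1310 genes tested were called higher and 0% lower by edgeR, with 0 calls by DESeq2 as well. Ikzf2 stood at 451.9 ± 185.8 CPM in the cells with a Klra UMI and 168 ± 66.54 CPM in those with none, higher in 3 of 3 samples (log2 change 1.32 ± 0.38, adjusted p = 0.842). Klrd1 (0.00 ± 0.47), Klrk1 (0.08 ± 0.46) and Klrc1 (-0.25 ± 0.57) had differences within their errors.

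CD4 T cells held few Klr UMIs, 137 over all members and samples. The sum over members was 171.9 ± 39.75 CPM in αPD-1 and 150.9 ± 209.4 CPM in αPD-1 + corin. No member passed the filter on low counts, so none was tested, where 3.7% of the 2136 genes tested were called higher and 4.26% lower. The highest levels were Klrd1 (30.85 ± 23.16 CPM), Klrk1 (20.22 ± 21.52 CPM) and Klra7 (20.17 ± 43.47 CPM). The Klra7 level came mostly from αPD-1 + corin replicate 3, at 108.3 CPM. Of the lists in this class, 5 of 8 tested effectors rose and 0 fell, and NK transcription factors gave 2 rises and 4 falls of 12. The monocyte and macrophage list summed to 153.8 to 330.8 CPM in αPD-1 and 433.4 to 1891 CPM in αPD-1 + corin. The neutrophil list summed to 38.46 to 89.05 and 94.8 to 464.5 CPM, and the B cell list to 37.9 to 102.6 and 0 to 26.87 CPM. These 3 did not overlap, while the NK marker list did (636.7 to 943.4 and 900 to 5024 CPM). Their part in these values was not tested.

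In Foxp3+ T cells, Klrg1 was the leading member and the only 1 tested. Klrg1, a receptor for cadherins that marks differentiated T cells, stood at 180.8, 60.25 and 107.4 CPM in the αPD-1 samples and at 345.8, 111.5 and 163.4 CPM in the αPD-1 + corin samples, with overlap. The log2 change was 0.38 ± 0.43 with an adjusted p of 0.887, where 0.0803% of the 2491 genes tested were called higher and 0.321% lower (0 members at an unadjusted p under 0.05, and 0 by DESeq2). Levels of Klrg1 elsewhere were 37.12 ± 20.02 CPM in NK-like cells, 22.18 ± 13.58 CPM in the remaining T cells, 10.97 ± 13.61 CPM in CD4 T cells and 6.852 ± 4.919 CPM in CD8 T cells. The lowest αPD-1 sample of Foxp3+ T cells lay within the range of the NK-like samples (13.63 to 67.46 CPM). After thinning, 1 to 5 Foxp3+ T cells per sample had a Klrg1 UMI.

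In monocytes and macrophages Klra2 (Ly49B) made up most of the Klr RNA, and 0 of 10 members tested were called (4 had an unadjusted p under 0.05, the lowest adjusted p was 0.143, and DESeq2 called 0). Of the 11965 genes tested, 0.192% were called higher and 0.167% lower. Klra2 stood at 125.9, 150.6 and 146 CPM in the αPD-1 samples and at 50.8, 93.05 and 166.3 CPM in the αPD-1 + corin samples (log2 change -0.45 ± 0.35, adjusted p = 0.507). αPD-1 + corin replicate 3 was the highest of all 6 samples and the other 2 were the lowest. Without replicate 3 of αPD-1 + corin 4 members were called, Klra2 (adjusted p = 0.0119) and Klra17 (log2 change -2.59, adjusted p = 0.0343) as lower and Klre1 (2.30, adjusted p = 0.025) and Klrd1 (1.03, adjusted p = 0.049) as higher. A Klra2 UMI was found in 14.6% ± 1.716 of thinned cells in αPD-1 and in 9.937% ± 5.407 in αPD-1 + corin (36.58% and 28.18% with all UMIs), against 1.684% ± 0.6544 and 0.7092% ± 1.228 of B-like cells. The αPD-1 + corin B-like samples held 14 to 51 thinned cells.

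Members typical of NK cells were at a few CPM in monocytes and macrophages. Klre1 stood at 0, 0.7411 and 0.8515 CPM against 2.573, 2.917 and 2.161 CPM without overlap (log2 change 2.22 ± 0.59, adjusted p = 0.143), and Klrd1 at 4.322, 1.779 and 4.47 CPM against 7, 7 and 5.763 CPM, also without overlap (0.94 ± 0.33, adjusted p = 0.199). With no filter on low counts Klre1 was called (adjusted p = 0.0173), and so was Klra17 as lower (adjusted p = 0.0214). Of the 10 members tested 3 (Klre1, Klrd1 and Klrb1c) separated upward without overlap, where 11.3% of all genes tested did. These values lie far below the 493.1 and 543.5 CPM of NK-like cells. The T marker list (12 of 12 genes detected) summed to 76.04 to 116.1 CPM in αPD-1 and 70.78 to 125.2 CPM in αPD-1 + corin monocytes and macrophages, and Ncr1 stood at 0.519 CPM. The NK marker list (15 of 15), which holds genes that myeloid cells also express, summed to 3637 to 4200 CPM in αPD-1 and to 4385 to 4992 CPM in αPD-1 + corin, without overlap, the neutrophil list (10 of 10) to 217.9 to 251.6 and 376.8 to 585.5 CPM, and the B cell list (10 of 10) to 127.8 to 248 and 38.79 to 60.25 CPM. Their part in these differences was not tested.

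In dendritic cells, Klrb1b, Klrd1 and Klrk1 were the leading members, at 457 ± 32.28 CPM over all members in αPD-1 and 566.6 ± 87.93 CPM in αPD-1 + corin. The class also held a cluster of 250 cells with no subtype name, led by C1qa, C1qb, C1qc and Apoe, genes of the monocyte and macrophage list. Another cluster with no subtype name held 41 cells and was led by Apod, Cd209d and Gprc5c. The part of these clusters in the values of the class was not tested. Of 6 members tested 0 were called by edgeR, with 1 at an unadjusted p under 0.05 and 1 called by DESeq2, both Klrb1b, where 0.0112% of the 8937 genes tested were called higher and 0.168% lower. Klrb1b, the inhibitory NKR-P1B receptor, stood at 91.79, 84.62 and 83.93 CPM in the αPD-1 samples and at 204.1, 191.6 and 111.9 CPM in the αPD-1 + corin samples. The groups did not overlap, as for 7.58% of all genes tested in the upward direction, and the log2 change was 0.97 ± 0.21 with an adjusted p of 0.13. Without αPD-1 + corin replicate 3, the closest of its group to the αPD-1 samples, the log2 change was 1.19 with an adjusted p of 0.00265. In these cells the T marker list (12 of 12 genes detected) summed to 172.3 to 290 CPM in αPD-1 and 229.4 to 260 CPM in αPD-1 + corin, and the NK marker list (15 of 15 genes detected), which holds genes that myeloid cells also express, to 2680 to 3288 and 2894 to 3274 CPM, with Ncr1 at 1.63 CPM. The B cell list (10 of 10) was lower in αPD-1 + corin without overlap (362 to 460.3 against 56.72 to 104.7 CPM) and the neutrophil list (10 of 10) higher (127.3 to 176.5 against 190.6 to 640.1 CPM). The part of these cells in the difference was not tested.

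The subtypes of dendritic cells differed in which members they held. Klrb1b was highest in cDC2-like cells (150.8, 169.9 and 196.2 CPM in αPD-1, 265.9, 435 and 211.5 CPM in αPD-1 + corin) and cDC1-like cells (109.3, 90.88 and 105.7 CPM against 254.1, 202 and 119.3 CPM), and every αPD-1 + corin sample exceeded every αPD-1 sample in both. By share of thinned cells with a Klrb1b UMI, cDC1-like cells overlapped between groups (8.571% to 10.81% against 7.317% to 21.93%). The cDC2-like cells did not (8.824% to 15.25% against 17.28% to 32.14%). Neither subtype was tested, and the share of all genes that separate in them was not counted. Klrd1 was found in cDC2-like (216.1 ± 42.88 CPM) and pDC-like cells (170 ± 43.03 CPM) and less in cDC1-like cells (36.77 ± 19.55 CPM). In mature DC-like cells Klrd1 stood at 10.13, 19.88 and 43.74 CPM against 169.1, 141.9 and 113.8 CPM, without overlap, but the samples had 6 to 59 such cells and the subtype was not tested. The 113.8 CPM of αPD-1 + corin replicate 3 rested on 3 UMIs. By share of thinned cells with a Klrd1 UMI, mature DC-like cells overlapped between groups (6.667% to 9.091% against 0% to 17.24%). Klrk1 stood at 169.4 ± 48.34 CPM in cDC2-like and 146.6 ± 26.75 CPM in cDC1-like cells, and its difference over all dendritic cells was -0.05 ± 0.16 (log2, adjusted p = 0.971). Klra17 over all dendritic cells was at 61.58 ± 15.9 CPM in αPD-1 and 49.63 ± 27.69 CPM in αPD-1 + corin (adjusted p = 0.834), Klra2 at 41.98 ± 14.94 and 32.63 ± 6.62 CPM (adjusted p = 0.706), and Klri1 at 10.69 ± 5.268 and 10.96 ± 5.4 CPM (adjusted p = 0.98). Klra2 had 283 UMIs in all dendritic cells, with 17 in cDC1-like, 97 in cDC2-like, 7 in mature DC-like and 23 in pDC-like cells. The other Klra2 UMIs came from cells with no subtype name.

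**Figure D5:**
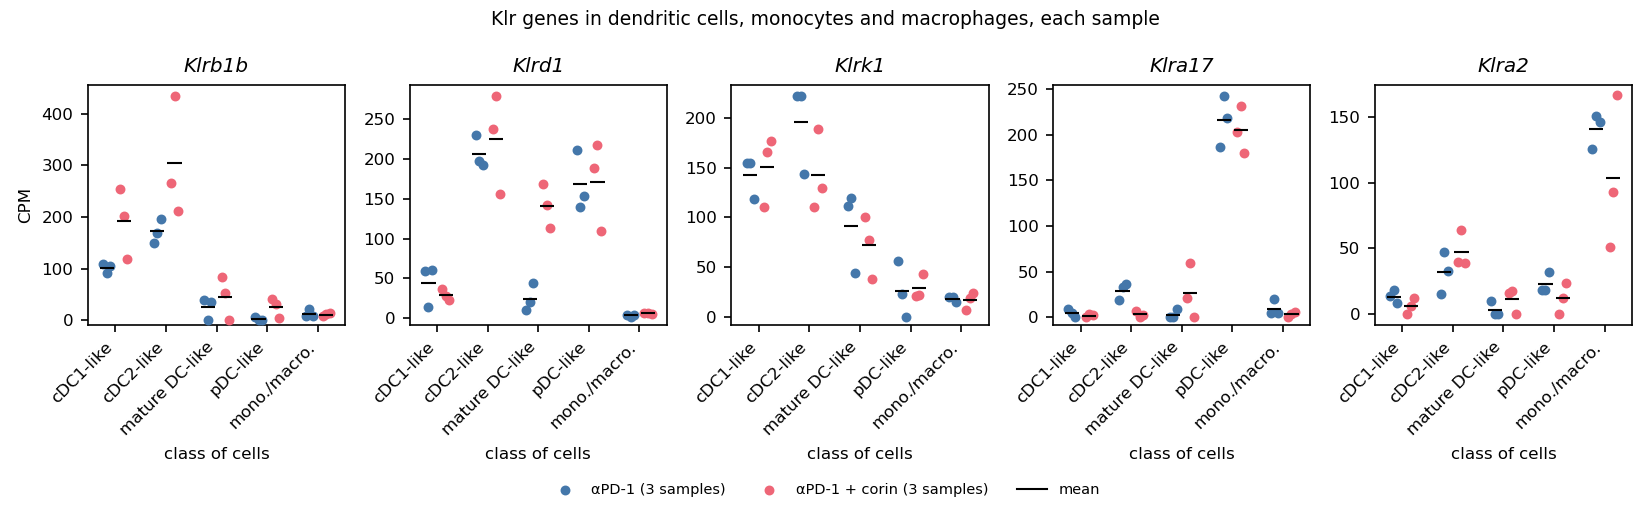
CPM of Klrb1b, Klrd1, Klrk1, Klra17 and Klra2 in 4 subtypes of dendritic cells and in monocytes and macrophages, 1 point per sample, αPD-1 in blue and αPD-1 + corin in red, with group means as bars. Klra17 is high in pDC-like cells (180.3 to 242.7 CPM) and Klra2 in monocytes and macrophages (50.8 to 166.3 CPM), while Klrb1b of cDC1-like and cDC2-like cells lies higher in αPD-1 + corin.

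The ligands of these receptors gave no call in any class tested, with 11 of the 17 listed ligand genes tested in monocytes and macrophages, 8 in dendritic cells, 8 in CD8 T cells and 5 in NK-like cells. In melanoma-like cells left after the enrichment, all members together summed to 6.129 ± 1.61 CPM in αPD-1 and 9.337 ± 4.712 CPM in αPD-1 + corin, and in B-like cells to 88.52 ± 7.637 and 39.59 ± 48.32 CPM. The αPD-1 + corin B-like samples held 1, 1 and 3 UMIs of the members.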

How the data were processed

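Tumor CD45+ cells were profiled by droplet single-cell RNA sequencing of 5′ ends. The authors deposited raw UMI counts per gene and barcode, made per the labels with Cell Ranger 8.0 on a mouse genome, and used Seurat 5.0.11. Barcodes from these counts needed 600 to 4000 detected genes, with mitochondrial UMIs no higher than 10%, and 2002 doublets were removed with Scrublet (the study used DoubletFinder). Cells were clustered with Seurat 5.3.0 and sctransform 0.4.2 (20 components, resolution 0.8) with Klr genes left out, and classes were named from marker lists. The UMIs of each class were added up within a sample, and edgeR 4.0.16 tested the sums (quasi-likelihood, TMM, filterByExpr, Benjamini-Hochberg, threshold 0.05). The study's test, MAST, takes cells as replicates. Levels of tested classes are CPM scaled by TMM, and those of other classes are unscaled. Floors cover counting error only. The ± values of log2 changes are SEs derived from edgeR's quasi-likelihood test, which also takes in the spread between samples. The ± values of levels and shares are SDs over samples. DESeq2 1.42.0 was an alternative. The scripts were tested on simulated data.

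Members and lists were chosen with earlier results of these data known. Values per sample are given for members that passed the filter in NK-like cells or the threshold in any class. From each list, called genes of NK-like or CD8 T cells were named, at most 4 by size. Values of members outside this rule, and list genes of other classes, were chosen after they were seen. Comparisons of T cells that need 1 further gene are not reported here.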

Additional observations from a re-analysis of the deposited data

Results flagged for a closer look

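The treatment difference of 2 members differed between NK-like and CD8 T cells by the test of the difference itself, the interaction of class and treatment within samples. For Klre1, the log2 difference between αPD-1 + corin and αPD-1 in NK-like cells minus that in CD8 T cells was -1.14 ± 0.28 (SE, edgeR's quasi-likelihood test, adjusted p = 0.0396). For Klrk1 (NKG2D) it was -0.93 ± 0.22 (adjusted p = 0.0311). With 1 sample left out, 2 members were called without αPD-1 + corin replicate 1, 1 without αPD-1 + corin replicate 3 and 0 without each of the other 4 samples.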

How the results depend on the processing

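The called members kept their direction under the alternatives run for them. Klra4 in the remaining T cells, at 0.02 (log2, not called), was at -0.002 with RLE size factors. In CD4 and Foxp3+ T cells 0 members were called under all 17 and 18 alternatives. In NK-like cells leaving out 1 sample gave 0 to 1 members, and the other alternatives run gave 0, while resolution 0.4 and leaving markers out of the clustering gave no NK-like class to test. In CD8 T cells (3 members) DESeq2 gave 0, UMI gates in place of clusters 0, no upper limit on genes per cell 1, and leaving out 1 sample 0 to 3, while no filter on low counts, markers left out of the clustering and cells with no Mki67 or Top2a UMI each gave 4, and resolution 0.4, RLE size factors, keeping doublets and 5% as the mitochondrial limit each gave 2. In monocytes and macrophages (0) no filter on low counts gave 2, and leaving out 1 sample 0 to 4. In dendritic cells (0) DESeq2, no filter and markers left out of the clustering each gave 1, and leaving out 1 sample 0 to 1. For the difference between NK-like and CD8 T cells (2) no filter gave 1, and leaving out 1 sample 0 to 2. In the remaining T cells (9) DESeq2 gave 5, no upper limit 4, UMI gates 0, cells with at least 2 T cell receptor UMIs 4, and leaving out 1 sample 3 to 10. For CD8 T cells with a Klra UMI (0 genes) no filter gave 10, no thinning 75, thinning to 2000 UMIs 4, no doublet removal 3, and leaving out 1 sample 0 to 0. For all T cells with a Klra UMI (107 genes) no filter gave 245, DESeq2 65, no thinning 343, thinning to 2000 UMIs 188, and leaving out 1 sample 63 to 99, with 63 without αPD-1 + corin replicate 3. The causes of these changes were not tested. Same-numbered samples did not deviate together (correlations of -0.0981 to 0.0847), so the numbers do not pair them. With the replicate block 1 member was called in CD8 T cells, 8 in the remaining T cells and 0 in the other classes. The planned split of Foxp3+ T cells by Klrg1 was not run, since no sample had 10 cells with a Klrg1 UMI.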
